A study of Mus musculus with 14 samples.

Results

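The S100 genes encode small calcium-binding proteins, and 10 of them were followed here through the conversion of epidermal stem cells (EpdSCs) by the transcription factor SOX9: S100a3, S100a4, S100a6, S100a8, S100a9, S100a10, S100a11, S100a13, S100a14 and S100a16. They were taken by symbol from the table of 54332 genes, in which 18 rows carried an S100 symbol, so the other 8 S100 genes are given more briefly. There were 10 RNA-seq libraries of sorted back-skin EpdSCs from CD1 mice, 2 for each of 5 timepoints. All of the mice carried K14rtTA and TRE-myc-Sox9, in which the Krt14 promoter drives a transactivator that switches on MYC-tagged Sox9 when doxycycline (DOX) is given. The uninduced group, D0, was therefore of the same genotype as the induced groups, and no mice without the transgene were compared. D0 cells came from mice at postnatal day 21, W1 cells after 1 week of DOX at postnatal day 28, W2 cells after 2 weeks at postnatal day 35 and W6 cells after 6 weeks at postnatal day 63. W12 cells came from newborn skin of this genotype that had been grafted onto female Nude mice, which lack most T cells, and was induced for 12 weeks after the graft had healed. Age therefore cannot be told apart from time on DOX, and at W12 neither can grafting. The sort removed cells with CD31, CD45, CD117, CD140a or CD34 and kept cells with high CD49f and high Ly6A.

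S100 proteins carry a pair of EF-hands, loops that grip calcium, and most work as dimers that expose a binding surface when calcium arrives. Inside the cell they dock on annexins, myosin and other partners, and several are released from stressed cells and act on receptors of neighbouring cells. S100A8 and S100A9 together form calprotectin, an antimicrobial complex stored by neutrophils and made by keratinocytes in wounded and inflamed epidermis. In the mouse most S100 genes lie side by side within the epidermal differentiation complex, which also holds the genes of the cornified envelope.

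On GRCm38, 12 of the 18 S100 genes, 8 of the described ones among them, lay within 184.688 kb at chr3:90511034-90695721. S100a11 and S100a10 lay in a second group at chr3:93520488-93564643. S100a7l2 was not found by its symbol in GENCODE M21 and was not placed. In the order of the chromosome, the placed genes of the first group ran from S100a1 through S100a13, S100a14, S100a16, S100a3, S100a2, S100a4, S100a5, S100a6, S100a7a and S100a8 to S100a9. The 4 described genes with the greatest change at W12, S100a4, S100a6, S100a8 and S100a9, are near each other in this row, and the bases before their starts are shown so that they can be compared. RefSeq promoter windows (GRCm38.p6, 250 bases before to 50 after a start) were matched by symbol for 8 of the 10 genes, with 12 windows in all; S100a10 and S100a14 had none. Each sequence is written 5′ to 3′ on the strand of its gene and ends before the first annotated base of RefSeq and GENCODE. Capitals mark letters that match a SOX motif (ACAANG), an AP-1 motif (TGANTCA), a RUNX motif (TGTGGT), a C/EBP motif (TTGCNNAA) or a TATA box (TATAAA) on either strand, where N is any base. No marked matches overlapped in these stretches.
S100a4, chr3:90603520-90603769, plus strand: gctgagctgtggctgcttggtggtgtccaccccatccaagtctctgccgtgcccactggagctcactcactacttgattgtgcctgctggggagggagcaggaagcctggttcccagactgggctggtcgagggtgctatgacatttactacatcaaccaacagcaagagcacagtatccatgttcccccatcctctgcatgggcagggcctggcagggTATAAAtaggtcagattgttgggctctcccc
S100a6, chr3:90612644-90612881, plus strand: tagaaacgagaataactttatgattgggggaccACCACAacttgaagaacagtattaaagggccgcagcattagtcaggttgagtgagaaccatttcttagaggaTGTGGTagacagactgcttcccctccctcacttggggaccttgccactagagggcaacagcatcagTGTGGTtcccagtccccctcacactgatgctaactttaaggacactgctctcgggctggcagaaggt
S100a8, chr3:90668821-90668977, plus strand: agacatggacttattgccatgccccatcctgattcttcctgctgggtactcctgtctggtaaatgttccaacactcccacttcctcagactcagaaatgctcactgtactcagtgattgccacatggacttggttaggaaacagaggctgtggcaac
S100a9, chr3:90695722-90695971, minus strand: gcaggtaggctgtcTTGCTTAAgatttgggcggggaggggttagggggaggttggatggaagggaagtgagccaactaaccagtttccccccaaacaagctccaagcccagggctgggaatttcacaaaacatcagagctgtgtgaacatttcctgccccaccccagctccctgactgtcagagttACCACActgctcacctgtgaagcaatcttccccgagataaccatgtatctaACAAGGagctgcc

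The matches differed between these stretches. S100a4 held a TATA box match, S100a6 held 3 RUNX matches, S100a9 held 1 match each to the C/EBP, RUNX and SOX letters, and the 157 bases of S100a8 held none. The full S100a8 window reached past the GENCODE start and held 2 SOX matches and 1 TATA box match beyond the printed bases, and the full S100a9 window held 1 TATA box match there. SOX letters stood in 5 of the 12 windows (41.7%; S100a3, S100a8, S100a9 and S100a16) and in 41.2% of all 32851 windows of this length in the table. For the other letters, the shares of these 12 windows and of all windows were 16.7% and 7.81% (AP-1), 25.0% and 16.8% (RUNX), 8.33% and 10.8% (C/EBP), and 33.3% and 13.6% (TATA box). AP-1 letters stood in the windows of S100a11, with 2 matches, and S100a16. A match describes letters only, and binding was not measured at these sites here.

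Transcript levels were given as TPM, a level that is scaled by transcript length and sums to the same total in each library. The transgene was at 45.6 and 89.6 TPM in the D0 libraries and from 606 to 3414 TPM in the 8 induced libraries. The libraries of D0 replicate 2 and W12 went against the label of male mice in part. D0 replicate 2 had 0.0278 TPM of the Y-linked Ddx3y, against 10.97 to 32.7 TPM in the other libraries, and 4.61 TPM of Xist, which is made from an inactive X chromosome. The W12 libraries held both Ddx3y, at 10.97 and 12.9 TPM, and Xist, at 5.51 and 3.50 TPM. The basal keratin Krt14 was at 19997 TPM or more in every library. The 6 melanocyte markers, Kit (CD117) among them, summed to between 1.96 and 10.6 TPM; 2 of them were tested, and 1, Dct, was called higher at W12, where 17.9% of all genes were. Endothelial markers, which the CD31 gate should remove, summed to at most 1.42 TPM before W12 and to 32.5 and 75.6 TPM at W12, led by Pecam1. The 2 endothelial markers tested, Pecam1 and Tie1, were called higher at W12 (5.21 and 2.75, limma adjusted p = 2.84e-05 and 0.000410), beside 17.9% of all genes. The calls of the 10 genes against D0 are therefore also given without D0 replicate 2. The W12 values may include RNA of host cells, since the grafts grew on female mice, and the part of host cells or endothelial cells in them was not tested.

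The 10 S100 transcripts took a larger share of all TPM in every induced library than in either D0 library. The 10 transcripts summed to 9277 and 6809 TPM at D0, 10990 and 12161 TPM at W1, 10388 and 11587 TPM at W2, 12309 and 11131 TPM at W6, and 17236 and 15974 TPM at W12. Every induced library lay above both D0 libraries, and both W12 libraries lay above all of the others. As a share of all TPM, the sum went from 0.928% and 0.681% at D0 to 1.72% and 1.60% at W12. S100a6, S100a10 and S100a11 made up 80.1% to 88.0% of this sum in every library. S100a4, S100a8 and S100a9 together made up 0.400% and 0.215% of it at D0, 2.23% and 2.07% at W6, and 9.46% and 9.03% at W12. By mean TPM, S100a6 went from the 87th most abundant gene of the table at D0 to the 8th at W12, and S100a9 from rank 16551 to rank 334.

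**Figure D1:**
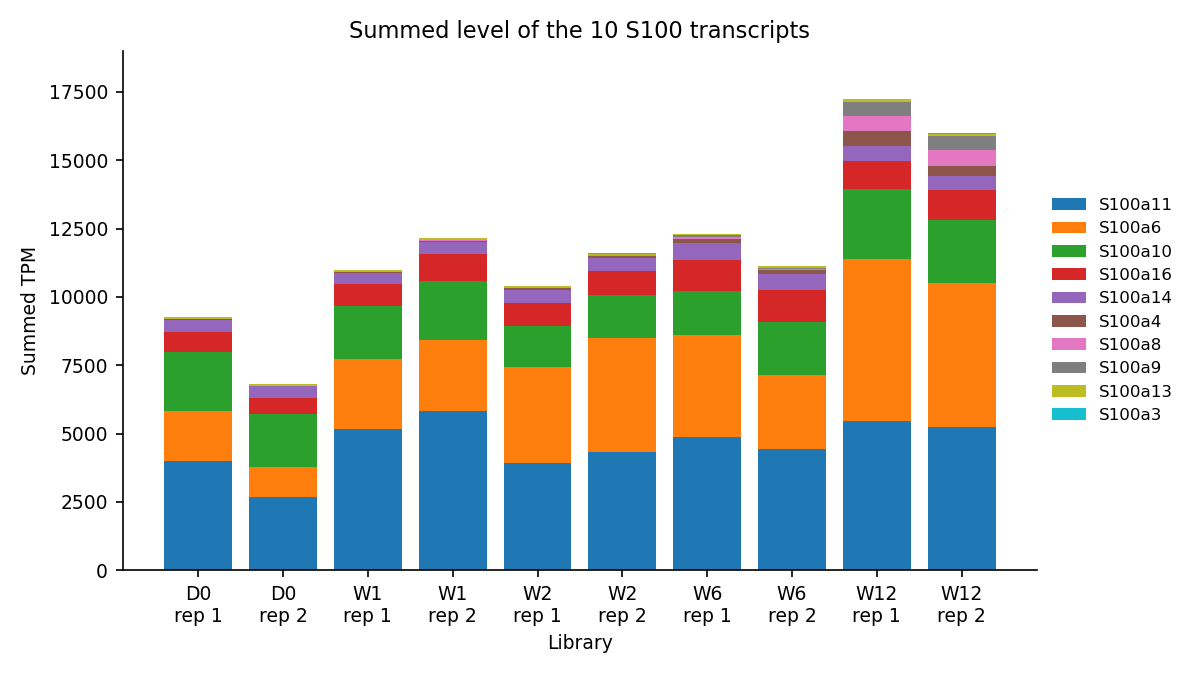
Stacked bars give the TPM of the 10 S100 transcripts, summed from 0, in each of the 10 libraries. S100a11, S100a6 and S100a10 fill most of every bar, and the bars of the 2 W12 libraries, at 17236 and 15974 TPM, are the tallest.

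Each gene was tested with limma on log2(TPM + 1) across 13110 genes whose mean was 1 TPM or more, among them all 10 described genes, and p-values were adjusted by the Benjamini-Hochberg method over these genes, with 0.05 as the threshold. Log2 changes are on this scale, which understates the changes of low genes, and all 4 comparisons with D0 share the same D0 libraries. At W1, 1 of the 10 genes rose and none fell, while 5.79% of all genes tested were called higher and 4.1% lower; 5 of the 10 and 25.6% of all genes passed an unadjusted p of 0.05. At W2, 3 rose and none fell, beside 9.06% and 6.64% of all genes. At W6, 6 rose and 1 fell, beside 18.3% and 14.1%, and at W12, 7 rose and none fell, beside 17.9% and 25.1%. Scaling by median ratios changed this background: of all genes called, 44.8% were higher at W1 instead of 58.6%, 45.7% at W2 instead of 57.7% and 45.2% at W6 instead of 56.5%. Over the 10 genes, the log2 changes had a median of 0.55 (W1), 0.59 (W2), 0.98 (W6) and 1.14 (W12), against 0.09, 0.06, 0.08 and −0.08 over all genes tested. An F test of any difference from D0 called 8 of the 10 genes, all but S100a3 and S100a11, and 57.5% of all genes. In 4 of the 10, S100a4, S100a6, S100a9 and S100a16, all 8 induced libraries lay above both D0 libraries, which held for 9.53% of all genes tested. Without D0 replicate 2, W1 had 0 calls, W2 had 2, W6 had 5 and W12 had 5, all higher, while 4.45%, 6.35%, 10.01% and 11.6% of all genes were called higher and 3.41%, 4.51%, 7.96% and 16.9% lower. The plot of levels by timepoint shows the individual libraries, and the plot of changes shows the calls.

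**Figure D2:**
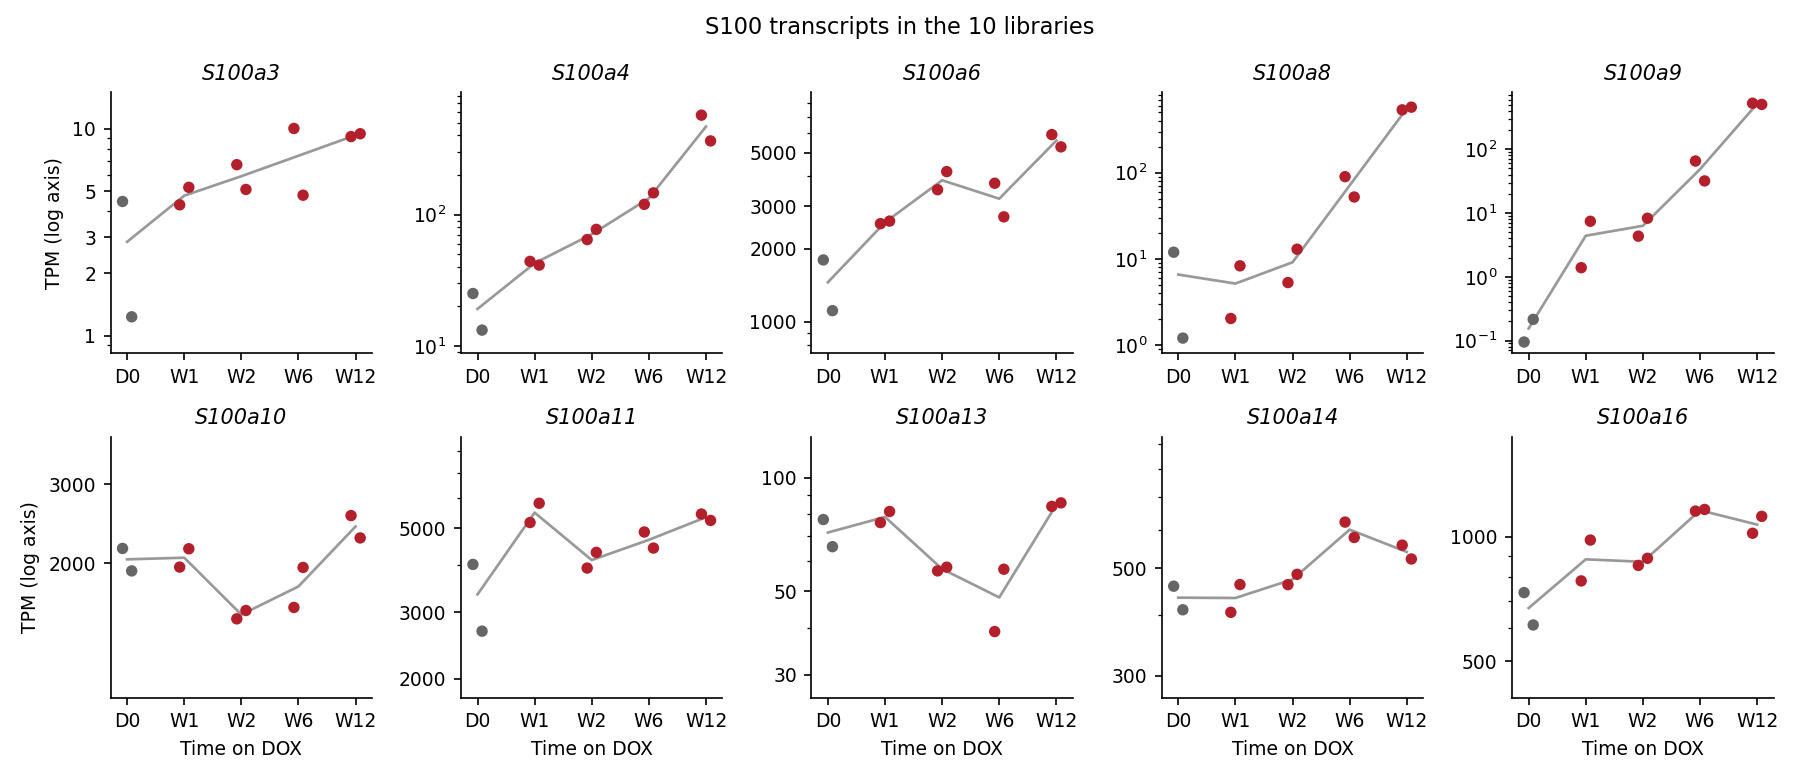
Each panel plots 1 S100 transcript in TPM on a log axis of its own range against time on DOX; grey points are D0 libraries, red points induced libraries, and the line joins the means of the 2 libraries. S100a4 lay higher at each later timepoint with no overlap between neighbouring timepoints, S100a8 and S100a9 were highest at W12, and S100a10 was lowest at W2 and S100a13 at W6.

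**Figure D3:**
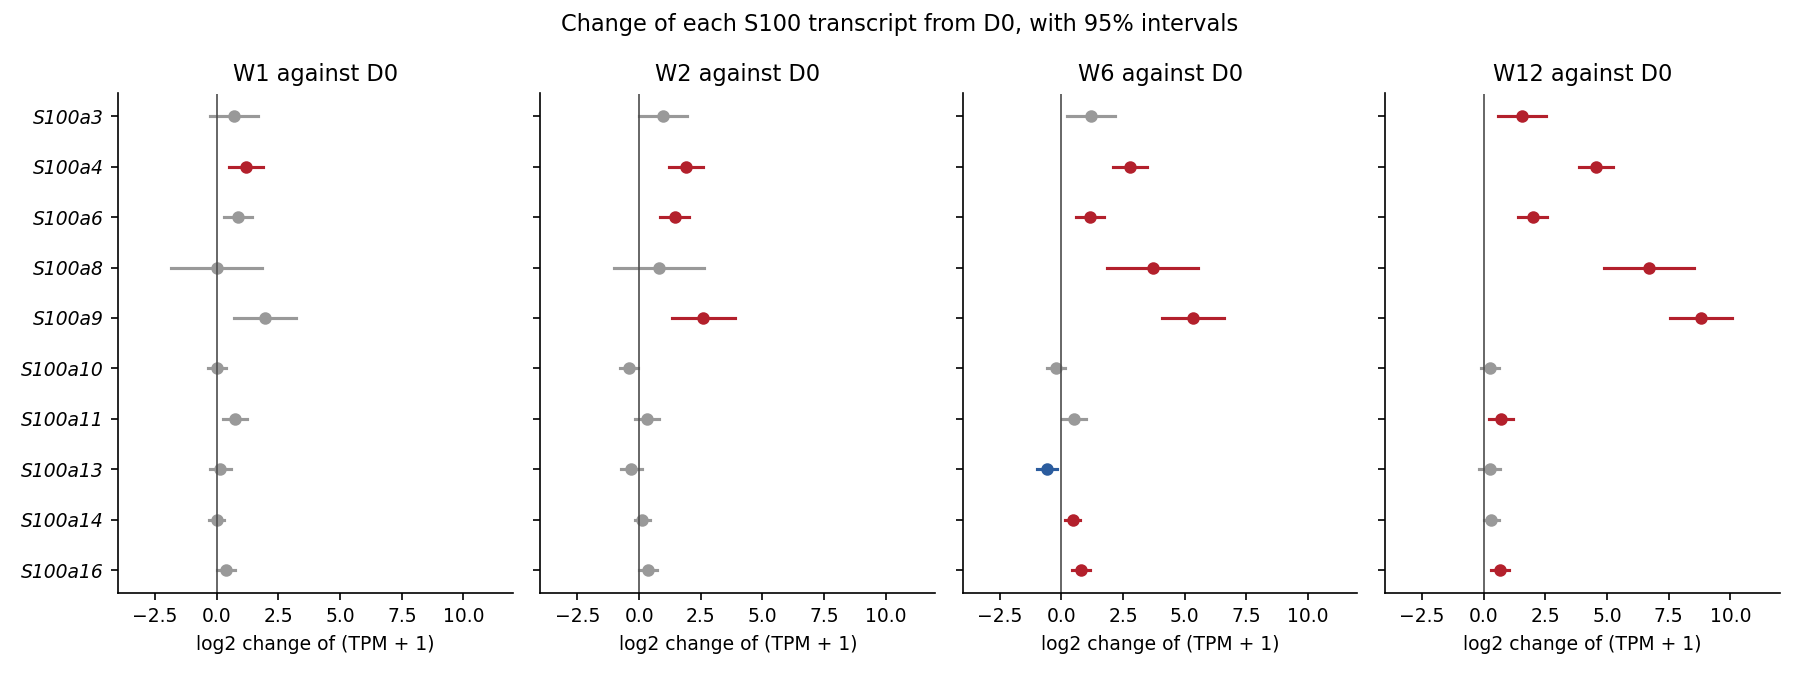
Points give the log2 change of (TPM + 1) from D0 at each timepoint with its 95% interval from limma, for n = 2 libraries per timepoint; red marks genes called higher and blue genes called lower at an adjusted p of 0.05. The 7 red genes at W12 run from S100a16, at 0.67, to S100a9, at 8.80, and S100a13 at W6 is blue.

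S100a8 and S100a9, the calprotectin genes, had the greatest changes, most of them after W2. S100a9 (ENSMUSG00000056071.12, chr3:90692632-90695721, minus strand) had 0.0949 and 0.215 TPM at D0, 1.39 and 7.41 TPM at W1, 4.33 and 8.27 TPM at W2, 65.2 and 31.8 TPM at W6, and 525 and 503 TPM at W12. It was all but silent before induction, and every induced library lay above both D0 libraries. S100a8 (ENSMUSG00000056054.9, chr3:90668978-90670035, plus strand) had 11.9 and 1.20 TPM at D0, 2.03 and 8.29 TPM at W1, 5.30 and 12.9 TPM at W2, 89.9 and 52.2 TPM at W6, and 536 and 576 TPM at W12. Its D0 libraries overlapped those of W1 and W2, and its W6 and W12 libraries lay above all earlier ones. S100a9 rose at W2 (log2 change 2.61 ± 0.55, SE; limma adjusted p = 0.0156), W6 (5.34 ± 0.55, limma adjusted p = 0.000362) and W12 (8.80 ± 0.55, limma adjusted p = 1.77e-05). S100a8 rose at W6 (3.70 ± 0.81, limma adjusted p = 0.00982) and W12 (6.70 ± 0.81, limma adjusted p = 0.000410) and not by the test at W2 (0.81 ± 0.81, limma adjusted p = 0.542).

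The calprotectin pair was also compared between later timepoints. From W6 to W12, S100a8 rose by 3.0 ± 0.81 (limma adjusted p = 0.0330) and S100a9 by 3.47 ± 0.55 (limma adjusted p = 0.00457), against a median of −0.16 over all genes. From W2 to W6, S100a8 rose by 2.89 (limma adjusted p = 0.0435) and S100a9 by 2.73 (limma adjusted p = 0.0169). Among the 10 genes these 2 were the ones called from W2 to W6, where 7.99% of all genes were called higher and 8.31% lower. The ratio of S100a9 to S100a8, both in TPM, was 0.00796 and 0.179 at D0, between 0.609 and 0.894 from W1 to W6, and 0.980 and 0.874 at W12. The 2 transcripts were thus at unlike levels at D0, where S100a8 was higher, and at like levels at W12. Without D0 replicate 2, S100a8 had a log2 change of 2.43 at W6 (limma adjusted p = 0.0495) and 5.43 at W12 (limma adjusted p = 0.00171), and S100a9 one of 2.68 at W2 (limma adjusted p = 0.0572), 5.41 at W6 (limma adjusted p = 0.00356) and 8.88 at W12 (limma adjusted p = 0.000362). Without W6 replicate 1, S100a8 was not called at W6 (limma adjusted p = 0.0502), and without W2 replicate 2, S100a9 was not called at W2 (limma adjusted p = 0.119). From W6 to W12, the S100a8 call was lost without any one of the W6 and W12 libraries (limma adjusted p from 0.0744 to 0.150), and the S100a9 call was kept in all 19 alternatives. The W2 to W6 calls were lost in 12 of 18 alternatives for S100a8 and in 4 for S100a9, among them without either W2 library or W6 replicate 1 for both (limma adjusted p from 0.0529 to 0.232).

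Neutrophils hold much S100a8 and S100a9 RNA, so a list of 10 neutrophil markers was set beside the pair. The list summed to at most 0.366 TPM through W2, 2.87 and 1.26 TPM at W6, and 8.06 and 12.4 TPM at W12, and so was higher where the pair was higher, at levels far below it. The granule genes Ngp and Elane were listed at 0 in all 10 libraries, Camp was listed at 0 in both W12 libraries, and Ly6g was at 0.063 TPM or less throughout. Most of the list at W12 came from Ltf (lactoferrin), at 1.97 and 8.98 TPM at W12, Cxcr2, at 3.20 and 2.32 TPM, and Retnlg, at 1.80 and 0.772 TPM. Of the list only Ltf was tested, and it was called higher at W12 (2.44, limma adjusted p = 0.0103), where 17.9% of all genes were. The general leukocyte gene Ptprc, which encodes CD45, was at 0.327 TPM or less in every library. The leukocyte list of 17 summed to between 11.1 and 58.8 TPM before W12 and to 238 and 259 TPM at W12, nearly all of it from the antigen-presentation genes Cd74 (102 and 124 TPM), H2-Aa (45.1 and 37.5 TPM) and H2-Ab1 (84.4 and 90.2 TPM). Of its 6 tested genes, 4 were called higher at W12 and none lower, beside 17.9% and 25.1% of all genes. These were Cd74, H2-Aa, H2-Ab1 and Coro1a (0.77, limma adjusted p = 0.0192). The T cell gene Cd3e went the other way, from 0.250 and 0.232 TPM at D0 to 0.0317 and 0.0370 TPM at W12, as did Cd207 of Langerhans cells, from 0.239 and 0.486 TPM to 0 and 0.0356 TPM; both were too low to be tested. Among other genes of the list too low to be tested, Fcer1g went from 0.383 and 0.181 TPM at D0 to 0.924 and 1.04 TPM at W12. Lyz2 went from 0.0411 and 0.0465 TPM to 0.171 and 0.956 TPM. The part of such cells in the level of the pair was not tested, and in bulk samples more cells of a type and more RNA per cell cannot be told apart.

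**Figure D4:**
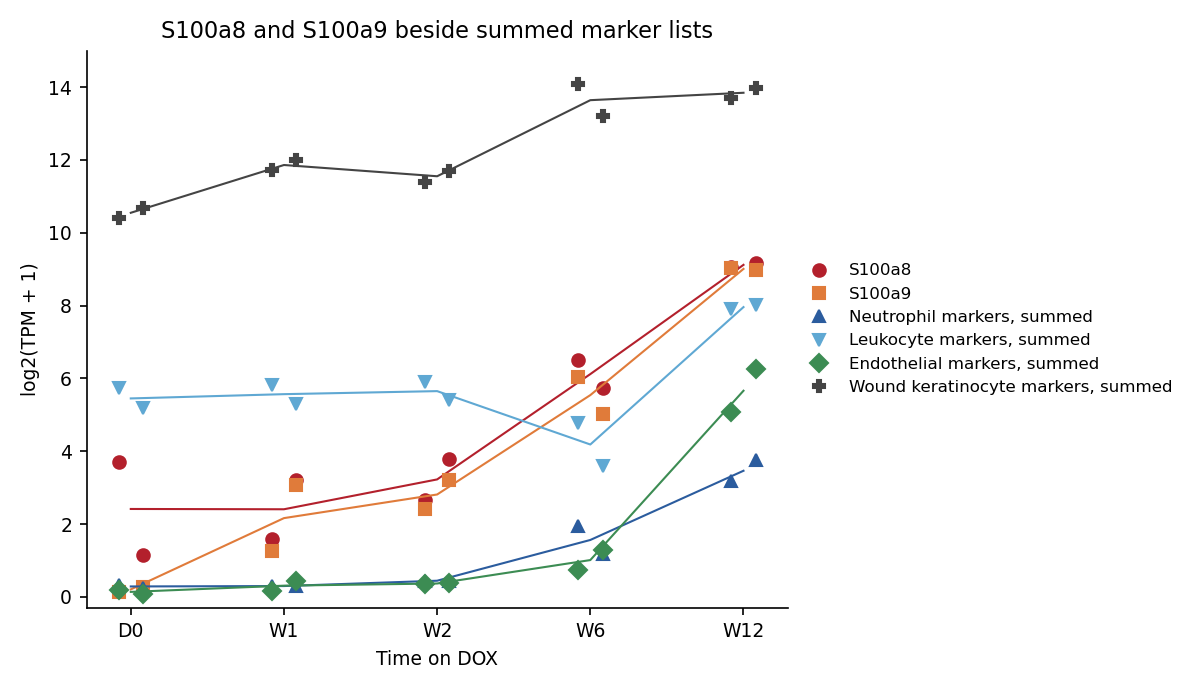
Points give log2(TPM + 1) in each library for S100a8, S100a9 and the summed TPM of 4 marker lists against time on DOX, and lines join the means of the 2 libraries. At W12 S100a8 and S100a9 lie near 9, the leukocyte sum near 8, and the neutrophil sum below 4; the wound keratinocyte sum lies above all of them at every timepoint.

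Of the 6 genes of the wound keratinocyte list, 2 were called higher at W1, 5 at W2 and all 6 at W6 and at W12 against D0, with a median log2 change of 6.36 and 8.10 at the last 2. Of all genes, 5.79%, 9.06%, 18.3% and 17.9% were called higher at these timepoints. At W2 the keratin gene Krt16 was called lower, at 43.7 and 46.7 TPM against 189 and 201 TPM at D0 (−2.09, limma adjusted p = 0.0030). Krt6a, a keratin of wounded epidermis, had 22.1 and 13.2 TPM at D0, 4424 and 2603 TPM at W6 and 4564 and 5380 TPM at W12. Slpi, a secreted protease inhibitor, was the gene of the whole tested table whose pattern over the 10 libraries was most like that of S100a9 (Pearson r = 0.995), and the next was Pde9a (r = 0.983). For S100a8 they were Glrx (r = 0.982) and Lyrm4 (r = 0.980). Of the 8 basal markers, 7 were called lower at W6, where 14.1% of all genes were, and at W12 5 were called lower and 1, Ly6a, higher, beside 25.1% and 17.9%. Krt15, a keratin of basal and hair follicle stem cells, went from 11241 and 11928 TPM at D0 to 322 and 242 TPM at W12 (−5.37, limma adjusted p = 5.73e-05). The coefficients of likeness describe 10 libraries that share 5 timepoints.

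S100a4 and S100a6, which lie close together on chromosome 3, were called from W1 and from W2 on. S100A4 binds the heavy chain of non-muscle myosin IIA and is linked to cell movement, and S100A6 (calcyclin) binds the ubiquitin ligase adaptor CACYBP. S100a4 (ENSMUSG00000001020.8, chr3:90603771-90606045) had 25.1 and 13.2 TPM at D0, 44.0 and 41.2 TPM at W1, 64.5 and 77.1 TPM at W2, 120 and 146 TPM at W6, and 570 and 363 TPM at W12. No library of a later timepoint fell below one of an earlier timepoint. In GENCODE M21, S100a4 overlaps the gene model Gm42674 on the same strand, so that reads could have been divided between them. S100a4 was called higher at W1 (1.18 ± 0.30, limma adjusted p = 0.0424), W2 (1.89 ± 0.30, limma adjusted p = 0.00428), W6 (2.79 ± 0.30, limma adjusted p = 0.000435) and W12 (4.57 ± 0.30, limma adjusted p = 2.16e-05), and it rose again from W6 to W12 (1.78, limma adjusted p = 0.00590). By mean TPM the W12 level was 24.4 times that at D0. The W1 call was lost in 13 of 19 alternatives, among them the one without D0 replicate 2 (0.74, limma adjusted p = 0.146) and those without either W1 library, either W2 library or W12 replicate 1 (limma adjusted p from 0.0502 to 0.183), and the W12 call was kept in all 18. Without D0 replicate 2 the changes at W2, W6 and W12 were 1.46, 2.35 and 4.13 (limma adjusted p = 0.0165, 0.00196 and 0.000142). The call from W6 to W12 was lost without W12 replicate 1 (1.45, limma adjusted p = 0.0571).

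S100a6 (ENSMUSG00000001025.8, chr3:90612882-90624181) was abundant from the start. It had 1799 and 1110 TPM at D0, 2541 and 2603 TPM at W1, 3511 and 4170 TPM at W2, 3733 and 2711 TPM at W6, and 5933 and 5279 TPM at W12. Every induced library lay above both D0 libraries, and the W12 libraries above all of the others, while W2 and W6 overlapped. S100a6 rose at W2 (1.44 ± 0.25, limma adjusted p = 0.00673), W6 (1.17 ± 0.25, limma adjusted p = 0.00939) and W12 (1.99 ± 0.25, limma adjusted p = 0.000534). Without D0 replicate 2 the changes at W2, W6 and W12 were 1.09, 0.82 and 1.64 (limma adjusted p = 0.0197, 0.0359 and 0.00183). Without W2 replicate 2 the W2 call was lost (limma adjusted p = 0.0666), as was the W6 call without W6 replicate 1 (limma adjusted p = 0.0516). The patterns most like that of S100a4 were those of Serpinb6c (r = 0.989) and Akr1b8 (r = 0.979), and for S100a6 they were Vhl and Mff (r = 0.968 each).

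Fibroblasts also express S100a4, and their markers were set beside it. The list of 6 summed to between 0.544 and 52.2 TPM, with the highest value in W6 replicate 2 and 13.7 and 28.1 TPM at W12. In these 3 libraries Dcn (decorin) gave 51.2, 13.2 and 27.2 TPM of the sum. Col1a1 and Col3a1, which encode fibrillar collagens, and Pdgfra, which encodes the gated CD140a, stayed below 1 TPM in every library, and Col1a2, another collagen gene, reached 1.08 TPM in D0 replicate 2 and stayed below 1 TPM in the others. W6 replicate 2, with 51.2 TPM of Dcn, had 146 TPM of S100a4, and W6 replicate 1, with 1.46 TPM of Dcn, had 120 TPM. The part of fibroblast RNA in the S100a4 level was not tested.

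S100a10 and S100a11, which make complexes with annexins, lie in the second group and were among the most abundant transcripts at every timepoint. S100A10 (p11) has lost calcium binding and holds annexin A2 at the membrane, and S100A11 binds annexin A1. S100a10 had 2158 and 1923 TPM at D0, 1961 and 2154 TPM at W1, 1503 and 1569 TPM at W2, 1594 and 1957 TPM at W6, and 2554 and 2278 TPM at W12. It was lowest at W2, where both libraries lay below those of D0, and highest at W12. No comparison with D0 was called for S100a10, and the interval of the W12 change ran from −0.12 to 0.61 on the log2 scale (0.24, limma adjusted p = 0.249), although the F test over timepoints passed (limma adjusted p = 0.0478). With scaling by median ratios, S100a10 was called lower at W2.

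S100a11 (ENSMUSG00000027907.4, chr3:93520488-93526287) had 4010 and 2672 TPM at D0, 5173 and 5816 TPM at W1, 3922 and 4314 TPM at W2, 4884 and 4429 TPM at W6, and 5448 and 5239 TPM at W12. Libraries of D0 and W2 overlapped, and those of W1, W6 and W12 lay above D0. S100a11 was called higher at W12 (0.71 ± 0.21, limma adjusted p = 0.0251) and at no other timepoint. That call rested on single libraries: it was lost without D0 replicate 2 (0.41, limma adjusted p = 0.0746), without W12 replicate 1 (limma adjusted p = 0.115) and without W12 replicate 2 (limma adjusted p = 0.0934). Anxa2 had 4526 and 4014 TPM at D0 and 4690 and 4981 TPM at W12, and the ratio of Anxa2 to S100a10, both in TPM, stayed between 1.56 and 2.19 over the 10 libraries. Anxa2 was lower at W6 (−0.55, limma adjusted p = 0.0255) and rose from W6 to W12 (0.74, limma adjusted p = 0.0135), where S100a10 had a change of 0.45 (limma adjusted p = 0.0825).

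S100a3, a gene of the hair cuticle, was the lowest of the 10 by mean TPM over all libraries. It had 4.45 and 1.23 TPM at D0, 4.29 and 5.22 TPM at W1, 6.71 and 5.09 TPM at W2, 10.04 and 4.78 TPM at W6, and 9.17 and 9.47 TPM at W12. D0 replicate 1 and W1 overlapped, and the W6 libraries spanned the W2 and W12 values. S100a3 was called higher at W12 (1.56 ± 0.43, limma adjusted p = 0.0180). The call was lost without D0 replicate 2 (0.92, limma adjusted p = 0.107), without W12 replicate 1 (limma adjusted p = 0.0810) and without W12 replicate 2 (limma adjusted p = 0.0842). S100a3 overlaps S100a2 and the gene model Gm42674 on the same strand in GENCODE M21, so that reads of these genes could have been divided between them. The reads were quantified on GENCODE M24, where S100a3 and S100a2 have other ID versions than in M21, so the overlap there may differ. Padi3, whose enzyme citrullinates S100A3, was at 0.297 TPM or less in every library. The hair shaft list, 10 genes found of 11, summed to 43.0 and 30.9 TPM at D0, 55.7 and 55.3 TPM at W1, and 9.16 TPM or less at W6 and W12, most of it before W6 from the keratin gene Krt32.

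S100a13, S100a14 and S100a16 lie at the near end of the first group and had changes of less than 1 on the log2 scale at every timepoint. S100A13 takes part in the release of FGF1 and interleukin-1α, proteins that lack a signal peptide, and S100A14 is found mostly in epithelia. S100a13 had 77.5 and 65.6 TPM at D0, 76.0 and 81.4 TPM at W1, 56.6 and 57.9 TPM at W2, 39.05 and 57.2 TPM at W6, and 84.0 and 85.8 TPM at W12. Its W2 and W6 libraries lay below D0 and its W12 libraries above. S100a13 was called lower at W6 (−0.58 ± 0.18, limma adjusted p = 0.0403), a call lost in 13 of 19 alternatives, among them those without D0 replicate 2 (−0.70, limma adjusted p = 0.0605), W6 replicate 1 (−0.31, limma adjusted p = 0.156) or any other single library but W6 replicate 2 (limma adjusted p from 0.0639 to 0.123). It rose from W6 to W12 (0.83 ± 0.18, limma adjusted p = 0.0166), and this call was lost without W6 replicate 1 (limma adjusted p = 0.0559) and without either W12 library (limma adjusted p = 0.0922 and 0.0766). The gene whose pattern was most like that of S100a13 was Anxa2 (r = 0.955), followed by Itga2 (r = 0.944).

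S100a14 had 459 and 410 TPM at D0, 405 and 462 TPM at W1, 462 and 485 TPM at W2, 622 and 578 TPM at W6, and 558 and 522 TPM at W12. Its highest levels were at W6, and it was called higher there (0.47 ± 0.13, limma adjusted p = 0.0290) but not without D0 replicate 2 (0.39, limma adjusted p = 0.0896) or in 9 other alternatives of 19, among them without either W2 or either W6 library (limma adjusted p from 0.0528 to 0.0912). The W12 change was 0.31, with an interval from 0.01 to 0.62 (limma adjusted p = 0.0891). S100a16 had 732 and 612 TPM at D0, 782 and 981 TPM at W1, 852 and 886 TPM at W2, 1153 and 1163 TPM at W6, and 1019 and 1119 TPM at W12. All of its induced libraries lay above D0. S100a16 rose at W6 (0.79 ± 0.16, limma adjusted p = 0.00714) and W12 (0.67 ± 0.16, limma adjusted p = 0.00986), and without W12 replicate 2 the W12 call was lost (limma adjusted p = 0.0632). Without D0 replicate 2 the changes of S100a16 were 0.66 and 0.54 (limma adjusted p = 0.0283 and 0.0397).

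By mean TPM the order of the 10 genes changed between D0 and W12. At D0 it was S100a11, S100a10, S100a6, S100a16, S100a14, S100a13, S100a4, S100a8, S100a3 and S100a9. In this order the libraries of S100a8 and S100a3 overlapped and those of no other neighbours did. At W12 it was S100a6, S100a11, S100a10, S100a16, S100a8, S100a14, S100a9, S100a4, S100a13 and S100a3. Of the neighbours in the W12 order, the libraries of S100a6 and S100a11 overlapped, at 5279 to 5933 TPM and 5239 to 5448 TPM, as did those of S100a8, S100a14, S100a9 and S100a4, which ran from 363 to 576 TPM. S100a9 thus went from the lowest place to a level shared with S100a14, a transcript that had held 405 TPM or more from D0 on.

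Read along the chromosome, the changes at W12 were unequal within the first group. From its near end, the tested genes had log2 changes of 1.67 (S100a1), 0.25 (S100a13), 0.31 (S100a14), 0.67 (S100a16), 1.56 (S100a3), 4.57 (S100a4), 1.99 (S100a6), 3.82 (S100a7a), 6.70 (S100a8) and 8.80 (S100a9). The genes past S100a3 had the 5 greatest changes. In the second group the changes were 0.71 (S100a11) and 0.24 (S100a10). S100a1 and S100a13, whose starts face away from each other at positions 90514392 and 90514435, had unlike values: S100a1 was called higher at all 4 timepoints and S100a13 at none of them, though the difference between the 2 genes was not tested.

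**Figure D5:**
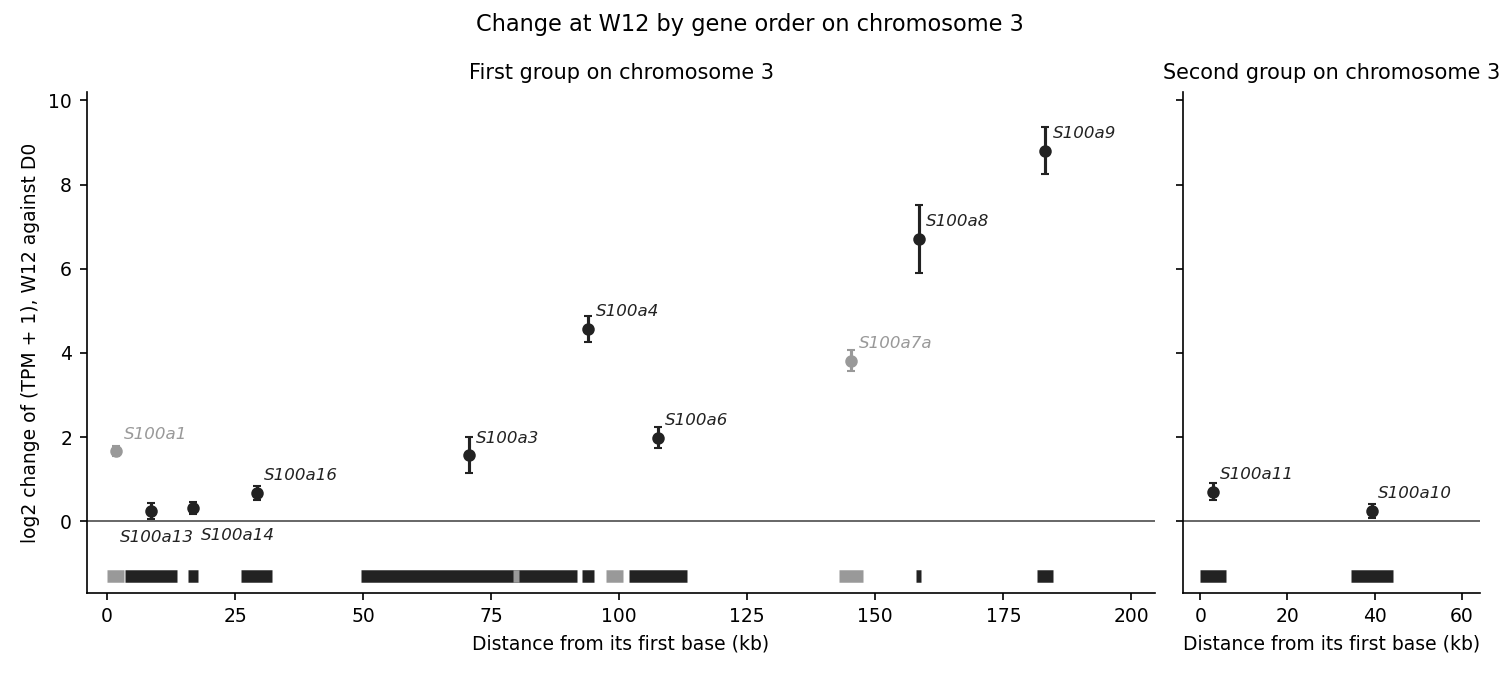
Points give the log2 change of (TPM + 1) at W12 against D0, with SE bars from limma (n = 2 libraries per timepoint), at the middle of each tested S100 gene; the x axis is the distance in kb from the first base of each group, and bars at the bottom are the gene bodies. Black marks the 10 described genes and grey other S100 genes; the values run from 0.24 at S100a10 to 8.80 at S100a9.

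Of the other 8 S100 genes, S100a1, S100a7a, S100b and S100g were tested and S100a2, S100a5, S100a7l2 and S100z were too low. S100a1, best known from heart muscle, had 55.0 and 50.1 TPM at D0, 101 and 114 TPM at W1, 112 and 114 TPM at W2, 120 and 115 TPM at W6, and 165 and 173 TPM at W12. It stepped up by W1 and again by W12, with little spread between libraries, and rose at W1 (1.02 ± 0.13, limma adjusted p = 0.00192) and W12 (1.67 ± 0.13, limma adjusted p = 3.9e-05). S100a7a, of the psoriasin group, was at 0.647 TPM or less through W6 and at 19.6 and 17.9 TPM at W12 (3.82 ± 0.25, limma adjusted p = 2.16e-05). S100g, which encodes a vitamin D-dependent calcium-binding protein, was highest at W1, at 3.68 and 7.75 TPM, against 0.179 and 0 TPM at D0 (2.56 ± 0.36, limma adjusted p = 0.00314). S100b was highest in a single library, W6 replicate 2, at 7.28 TPM. The 4 untested genes reached at most 1.84 TPM.

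Of 12 genes listed as partners of S100 proteins, 11 were tested. At W12 2 were called higher and 4 lower, beside 17.9% and 25.1% of all genes, with a median log2 change of 0.18. Fgf1, at 0.312 and 0.271 TPM at D0 and 1.59 and 1.72 TPM at W12, and Il1a, at 2.58 and 4.06 TPM and 12.7 and 11.4 TPM, rose (1.04, limma adjusted p = 0.0340, and 1.62, limma adjusted p = 0.00568); both encode proteins whose release involves S100A13. Il1a had been called lower at W1 (−1.36, limma adjusted p = 0.0382) and W2 (−1.50, limma adjusted p = 0.0200), and Fgf1 higher at W6 (2.09, limma adjusted p = 0.00250). Myh9, the myosin heavy chain bound by S100A4, fell from 45.3 and 61.6 TPM to 17.8 and 19.4 TPM (−1.46, limma adjusted p = 0.000979). Anxa6, Ahnak and Plat, which encode an annexin, a giant scaffold bound by S100A10 and annexin A2, and tissue plasminogen activator, also fell, by 1.25 (limma adjusted p = 0.0382), 0.73 (limma adjusted p = 0.0140) and 1.17 (limma adjusted p = 0.0159). Anxa1 had 2124 and 1865 TPM at D0 and 2371 and 2970 TPM at W12 (0.41, limma adjusted p = 0.0623). Among these calls, those of Fgf1, Anxa6 and Ahnak were lost without either W12 library or D0 replicate 2, those of Fgf1 and Anxa6 also without D0 replicate 1 and that of Anxa6 without either W1 library, and that of Plat without D0 replicate 1 or W12 replicate 1 (limma adjusted p from 0.0509 to 0.207).

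Of 6 listed receptors for released S100 proteins, 4 were tested and 2 were called higher at W12, where 17.9% of all genes were. Bsg and Nptn, which encode receptors of S100A9 and S100A8, were the most abundant and had changes of 0.05 (limma adjusted p = 0.825) and −0.14 (limma adjusted p = 0.391). Mcam had 2.96 and 3.65 TPM at D0, 21.2 and 18 TPM at W1, and 6.99 and 18.5 TPM at W12 (1.54, limma adjusted p = 0.0213), and it was called higher at W1 and W2 too (2.26, limma adjusted p = 0.0141, and 2.01, limma adjusted p = 0.0172). Cd36 was at 0.345 TPM or less before W12 and at 16.8 and 21.2 TPM there (4.20, limma adjusted p = 7.09e-06). Endothelial cells also express Mcam and Cd36, and the endothelial sum given above was high at W12 too; its part was not tested. Without W12 replicate 2 or either D0 library, Mcam was not called (limma adjusted p from 0.0653 to 0.149). Ager, which encodes the receptor RAGE, was at 0.493 TPM or less and Tlr4 at 1.63 TPM or less.

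Fused S100 proteins, which join an S100 domain to long repeats in the cornified layer, are encoded by genes that lie between the 2 S100 groups. Of 7 listed, Flg and Tchh were tested, and neither was called at W12; Flg2, the next in level, was at 0.619 TPM or less. Flg (filaggrin) had 0.591 and 3.10 TPM at D0, 18.2 and 27.7 TPM at W2, 38.7 and 13.1 TPM at W6, and 3.06 and 1.15 TPM at W12. It rose at W2 (3.20, limma adjusted p = 0.00815) and W6 (3.21, limma adjusted p = 0.00451) and fell from W6 to W12 (−3.0, limma adjusted p = 0.0102), where S100a4, S100a8, S100a9 and S100a13 were the 4 of the 10 called higher, beside 6.66% of all genes called higher and 13.5% lower. Of all genes called from W6 to W12, 33.0% were higher, and 55.8% with scaling by median ratios. Tchh (trichohyalin) ranged from 1.68 to 6.20 TPM over the 10 libraries. Of the suprabasal list of 8, to which Flg also belongs, 3 genes were called higher and 2 lower at W12 against D0, beside 17.9% and 25.1% of all genes. At W6, 4 were called higher and 1 lower, beside 18.3% and 14.1%. The list summed to 5920 and 2085 TPM at D0, 5346 and 7424 TPM at W1, and 3864 and 6544 TPM at W2. At W6 it summed to 11971 and 12572 TPM and at W12 to 13628 and 11986 TPM.

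Patterns most like the remaining genes were those of Dynlt1a (r = 0.972) and a gene with no symbol in the table (r = 0.954) for S100a3, and Mitd1 (r = 0.947) and Ly6a (r = 0.940) for S100a10. Ly6a encodes the LY6A protein on which the cells were sorted; it had 756 and 565 TPM at D0, 293 and 268 TPM at W2 and then 1168 and 1109 TPM at W12, while S100a10 was also lowest at W2 and highest at W12. For S100a11 they were Rpgrip1l (r = 0.964) and Sbsn (r = 0.932), for S100a14 Gm42890 (r = 0.974) and Traip (r = 0.963), and for S100a16 Znrd2 (r = 0.976) and Pigu (r = 0.975). Among the 10 genes themselves, S100a4 and S100a9 had r = 0.961, S100a8 and S100a9 r = 0.951, and S100a10 and S100a13 r = 0.819, while S100a13 and S100a14 had r = −0.44.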

How the data were processed

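RNA-seq of 10 libraries of sorted EpdSCs, 2 at each of D0, W1, W2, W6 and W12, was used, with groups and replicate numbers taken from the labels. The table that the authors deposited gives TPM for each gene: Skewer trimmed the reads, Salmon 1.4.0 quantified them on GENCODE M24 transcripts (GRCm38) plus the transgene, and Tximport 1.12.3 summed transcripts to genes. Depth cannot be read from TPM, so it and the counting error are unknown. The other 4 libraries, of hair placode cells, were not analysed here, since their table holds the comparison the authors made.

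The 13110 genes whose mean was 1 TPM or more were tested on log2(TPM + 1) with limma 3.58.1 in R 4.3.3, which fitted 5 timepoint means with a trended prior to all 10 libraries and estimated 1 spread for each gene; p-values were adjusted by the Benjamini-Hochberg method over all genes tested, at 0.05. In simulated data with 200 changed genes, the test of W12 against D0 called 81% of changes of log2 size 2 and 48% of size 1, and 5 unchanged genes, of 13110. In the real data 5642 genes were called at W12, far more than were changed in the simulation. The simulated spreads were also not kept with the levels of their genes, so these shares need not hold for the real comparison. The replicates are separate samples by their labels, and with 2 per timepoint p-values rest on the spread over all 10.

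The S100 genes, partners, receptors and marker lists were chosen with earlier results of these data known. Named were the 10 genes, every other S100 gene, for the partner, receptor and fused S100 lists the 3 highest genes and those called at W12, and for each of the 10 genes the 2 genes with the highest Pearson r over the libraries. Padi3, Ager, Tlr4 and the genes named from the marker lists lie outside this rule and were chosen after their values were seen. Positions came from GENCODE M21 and promoters from RefSeq, both on GRCm38; the motifs were also chosen after the values were seen. Python 3.11.15 drew the figures with matplotlib 3.10.9. Alternatives were another pseudocount, other filters, 2 other scalings, no trend, a replicate block, the 4 libraries compared alone and each library left out.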

Additional observations from a re-analysis of the deposited data

How the results depend on the processing

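Over the 10 genes and 6 comparisons, 1110 alternative values were computed: 982 kept their direction and their side of the threshold, 87 lost the call, 26 gained it and 15 changed sign. Replicate numbers did not pair the libraries (correlations of same-numbered deviations from −0.13 to 0.09), so the replicate block is no paired analysis. With the block, 0 S100 genes were called at W1 and 1 from W2 to W6, and 1396 genes differed from W2 to W6 against 2137. With the numbers crossed, an alternative chosen after seeing the data, 0 S100 genes were called at W1.

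S100 genes called at W1 numbered 1, and 2 with a pseudocount of 0.1 or quantile normalization, and 0 with all genes above 0 TPM, median-ratio scaling, no trend or only the 4 libraries compared. With all genes above 0 TPM, the genes differing numbered 606 at W1 (1296 before), 1011 at W2 (2058) and 940 from W2 to W6 (2137), and the S100 genes 4 at W6 (7 before), 0 from W2 to W6 (2) and 4 by the F test (8). With only the 4 libraries compared, the genes differing numbered 411 at W1, 1086 at W2, 1094 at W6 (4251), 966 from W2 to W6 and 887 from W6 to W12 (2642), and the S100 genes 2 at W6 and 4 at W12 (7). From W2 to W6, 1 S100 gene was called with a pseudocount of 0.1 and 1 without the trend. The cause of these shifts was not tested, other than that fewer libraries leave fewer degrees of freedom.

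With each library left out in turn, genes differing ranged from 377 to 1773 at W1, 652 to 2647 at W2, 2356 to 5047 at W6, 3362 to 6291 at W12, 207 to 3179 from W2 to W6, 761 to 3223 from W6 to W12 and 5008 to 8145 by the F test. S100 genes called ranged from 0 to 3 at W1, 1 to 5 at W2, 3 to 8 at W6, 4 to 8 at W12, 0 to 3 from W2 to W6, 1 to 6 from W6 to W12 and 5 to 10 by the F test. The lowest came without a library of the timepoints compared, and most of the highest without D0 replicate 1; the lone library left in a group was assumed to vary like the others.

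Signs changed for these values, of which none was called. S100a8 at W1 (−0.01) had 0.10 with a pseudocount of 0.1 and −1.28 to 1.27 with a library left out, and at W2 (0.81) −0.47 to 2.09. S100a10 at W1 had −0.11 with median-ratio scaling and −0.070 to 0.096 with a library left out. S100a14 at W1 had 0.0090 with quantile normalization and −0.098 to 0.091 with a library left out. S100a3 ran from −0.25 to 0.69 from W2 to W6 (0.22) and from −0.098 to 0.84 from W6 to W12 (0.37). From W6 to W12, S100a11 (0.20) had −0.032 with quantile normalization, and S100a14 (−0.15) 0.0042 and S100a16 (−0.12) 0.040 with median-ratio scaling. At W12, Bsg (0.05) had −0.19 with quantile normalization and −0.051 to 0.15 with a library left out, Flg (0.21) −0.47 to 0.89 and Tchh (−0.12) −0.60 to 0.36. Median-ratio scaling moved the median of all genes from 0.09 to −0.01 at W1, from 0.08 to −0.05 at W6 and from −0.16 to −0.02 between W6 and W12, where it called 6 S100 genes higher, and 1063 of all genes higher and 842 lower against 873 and 1769.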
